A study of Mus musculus with 27 samples.

Results

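Chemokines are small secreted proteins that guide leukocytes along concentration gradients, and they act on seven-transmembrane receptors coupled to Gi proteins. Ligands are named by the spacing of their first cysteines (CC, CXC, XC and CX3C), and the receptors are named after the ligand class that they bind. Atypical receptors bind chemokines without coupling to G proteins and act as scavengers or transporters. In the injured liver, hepatocytes, Kupffer cells, sinusoidal endothelium and stellate cells all release chemokines, and recruited monocytes, neutrophils and T cells carry the receptors. The mouse family was taken here as the protein-coding genes whose symbols have the form Ccl, Cxcl, Cx3cl or Xcl with a number, or Ccr, Cxcr, Xcr or Ackr with a number, together with Pf4 and Ppbp. The rule found 63 genes among the 55414 genes of the count table, and 33 of them averaged 10 or more counts over the libraries and were tested with the 14114 genes above that level.

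The libraries were poly(A) RNA-seq of whole liver from 27 female Balb/c mice that were 8 weeks old, in 8 groups. Control mice (n = 4) received olive oil into the peritoneum and PBS into the tail vein, 4MU mice (n = 3) received 4-methylumbelliferone, an inhibitor of hyaluronan synthesis, at 600 mg/kg, and siLuc mice (n = 3) and siHAS2 mice (n = 3) received lipid nanoparticles (LNP) loaded with siRNA against luciferase or against Has2, first at 1 mg/kg and then at 0.5 mg/kg. The CCl4 (n = 2), CCl4 + 4MU (n = 4), CCl4 + siLuc-LNP (n = 4) and CCl4 + siHAS2-LNP (n = 4) mice were given the hepatotoxin carbon tetrachloride for 2 weeks. Mice have no luciferase gene, so siLuc-LNP stands for the particle without a target, and the control mice received no particle. Total counts ran from 7044386 in CCl4 + siHAS2-LNP mouse 4 to 29425937, and the targeted gene could not be checked, since Has2 was at 0 counts in 25 of the 27 libraries and at most at 2. Levels below are counts per 1000000 counts (CPM) of the tested genes with TMM scaling, differences are log2 fold changes from edgeR's quasi-likelihood test with their standard error (SE), and a gene was called at a Benjamini-Hochberg adjusted p under 0.05 over all 14114 genes. The mice were labelled as separate animals, and p-values measure the spread between them. In whole liver, fewer cells of a type and less RNA per cell cannot be told apart.

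The stretches before the start sites of 3 members and a site near the start of Cxcl14 are shown because results given further on turn on these genes. They were read from the RefSeq promoter table (GRCm38.p6), were located by exact match in GRCm39, and all lie on the minus strand. Cxcl9 (chr5:92475939-92476188) and Cxcl10 (chr5:92496749-92496998) are neighbouring genes for ligands of CXCR3, and Ccr1 (chr9:123768730-123768979) encodes a receptor for inflammatory CC chemokines. Each stretch is the 250 bases before the RefSeq start, and for Cxcl14 (chr13:56444517-56444546), a ligand of epithelium and stroma, 30 bases are given, because the RefSeq start lies 239 bases inside the GENCODE gene. Capitals mark matches on either strand to the kappaB motif, by its name, or to the interferon-stimulated response element, ISRE, written GAAANNGAAA.
Cxcl9: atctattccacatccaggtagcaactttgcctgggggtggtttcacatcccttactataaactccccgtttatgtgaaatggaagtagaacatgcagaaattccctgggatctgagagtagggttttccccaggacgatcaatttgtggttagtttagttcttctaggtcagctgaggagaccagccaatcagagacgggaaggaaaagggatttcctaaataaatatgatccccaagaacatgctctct
Cxcl10: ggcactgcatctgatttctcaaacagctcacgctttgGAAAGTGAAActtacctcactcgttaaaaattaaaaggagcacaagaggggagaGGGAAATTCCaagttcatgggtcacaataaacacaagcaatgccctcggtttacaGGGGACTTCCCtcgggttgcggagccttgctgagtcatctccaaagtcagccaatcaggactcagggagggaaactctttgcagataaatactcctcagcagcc
Ccr1: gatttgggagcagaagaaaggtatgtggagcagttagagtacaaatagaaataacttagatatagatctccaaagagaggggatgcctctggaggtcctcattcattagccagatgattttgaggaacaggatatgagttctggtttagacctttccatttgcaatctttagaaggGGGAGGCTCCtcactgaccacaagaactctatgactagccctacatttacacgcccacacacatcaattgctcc
Cxcl14: gtgtccacagGAAACAGAAAagcagcaccc
Cxcl10 held 1 ISRE match and 2 separate stretches that match kappaB, of which the second holds 2 overlapping matches on one strand and 1 on the other. Ccr1 held 1 kappaB match, Cxcl14 held 1 ISRE match, and Cxcl9 held neither in this window. Of the 33 tested members, 26 had an entry in the promoter table, and in the full window of 300 bases 7 of them (Ackr2, Ccl27a, Ccl9, Ccr1, Ccr3, Cxcl1 and Cxcl10) matched kappaB and 2 (Cxcl10 and Cxcl14) matched the ISRE. Among all 32851 promoters of the table, 8.46% held the kappaB letters and 3.44% held those of the ISRE.

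Levels per length, in CPM per kb of exon, spanned 466-fold between the highest and the lowest tested member in the 13 mice without CCl4. Ccl9, a ligand of CCR1, averaged 39.1 ± 6.03 (SD, n = 13) and Cxcl12, the homeostatic ligand of CXCR4, averaged 38.6 ± 6.33 CPM per kb, so these neighbours in the order did not differ beyond their spread. Cxcl1, a neutrophil attractant acting on CXCR2, followed at 13.7 ± 16.3 CPM per kb, a spread wider than its mean. Cxcl9 stood at 9.56 ± 3.75 CPM per kb, and the next ligands in the order were Ccl6, Ccl24, Ccl5 and Cxcl10. The highest receptor was Cxcr6, at 1.28 ± 0.418 CPM per kb, and the lowest members were Ackr4, Ackr3 and Cx3cl1. With CCl4 the first 3 places were unchanged, Cxcl14 went from place 30 to place 11, Ppbp went from place 9 to place 24, and Cxcr4 went from place 24 to place 12.

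**Figure D1:**
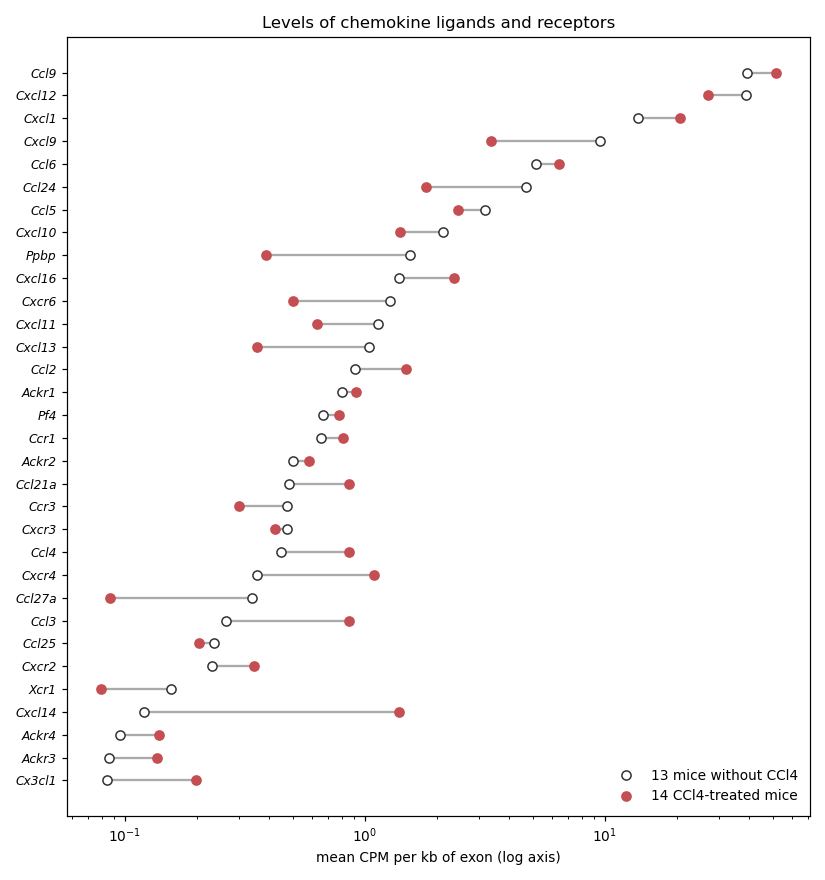
Mean level of 32 of the 33 tested members in CPM per kb of exon (log axis), in the 13 mice without CCl4 (open circles) and the 14 CCl4-treated mice (filled circles), ordered by the level without CCl4. Cxcl14 shows the widest gap between the circles, and Ccl9 and Cxcl12 stay at the top in both.

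The effect of CCl4 was asked in 4 arms (CCl4 against control, CCl4 + 4MU against 4MU, CCl4 + siLuc-LNP against siLuc and CCl4 + siHAS2-LNP against siHAS2) and as the mean of the 4 log2 fold changes. Chemokine genes moved in both directions. Of the 33 tested members, 5 (Ccl3, Ccl4, Cxcl14, Ccl21a and Cx3cl1) averaged under 10 counts in the mice without CCl4 and passed the minimum through the CCl4 mice, and 2 (Ccl27a and Xcr1) did so the other way, so for these 7 the choice of tested genes leans towards a difference. In the mean effect, 10 members rose and 11 fell, so that 63.6% of the 33 were called, against 51.9% of all genes tested (26.3% higher and 25.6% lower). The median log2 fold change of the members was 0.29, beside -0.02 for all genes. In CCl4 against control 8 members rose and 9 fell, where 34% of all genes were called (18% higher, 16.1% lower). CCl4 + 4MU against 4MU gave 7 higher and 3 lower (23.7% of all genes called), CCl4 + siLuc-LNP against siLuc gave 4 higher and 7 lower (24.2%), and CCl4 + siHAS2-LNP against siHAS2 gave 1 higher and 6 lower (12.8%). Of the 21 members called in the mean effect, 15 had the same sign in 4 of 4 arms. Cxcl14 was the one member called in 4 of 4 arms, and Cxcl13 was the one called higher in 1 arm and lower in another. Of the 45 calls in the 4 arms, 27 were lost when some single library was left out, and of the 21 in the mean effect, 6 were. The count in CCl4 against control was 4 without CCl4 mouse 2, that of the siLuc arm was 7 without siLuc mouse 2, and that of the siHAS2 arm was 4 without siHAS2 mouse 2.

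**Figure D2:**
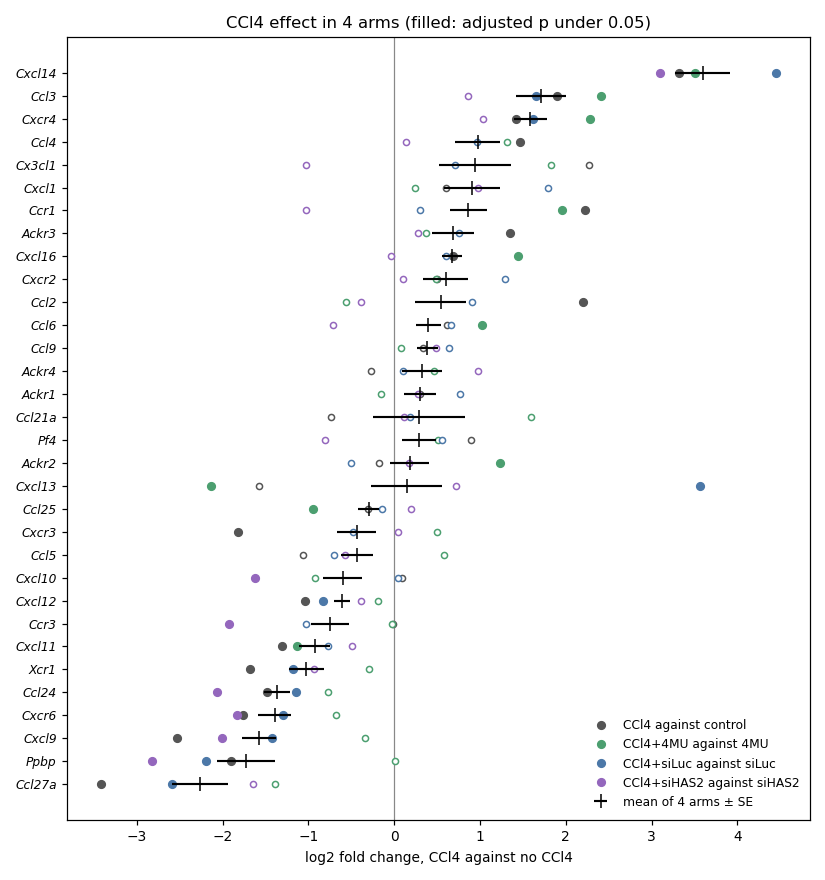
Log2 fold change with CCl4 in each of 4 arms (coloured points, filled where the adjusted p was under 0.05) and their mean with its standard error (black), for 32 of the 33 tested members. Cxcl14 lies to the right in all arms, while Ccl27a, Cxcl9, Ccl24, Cxcr6, Xcr1 and Cxcl11 lie left of 0 in all arms.

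The 3 ligands of CXCR3, which draw effector T and NK cells and are induced by interferon, all fell in the mean CCl4 effect. Cxcl10 had a positive log2 fold change in 2 of the 4 arms, at most 0.095. The receptor itself was called lower in 1 arm. Cxcl9 (ENSMUSG00000029417, chr5:92469206-92475945, minus strand) stood at 41.4, 34, 35.4 and 34.1 CPM in control, 8.04, 24.8 and 15.9 in 4MU, 17.3, 49.6 and 36.6 in siLuc and 22.3, 27.9 and 28 in siHAS2 mice. With CCl4, Cxcl9 stood at 8.13 and 4.52 CPM in CCl4, 15.4, 5.83, 18.4 and 11.7 in CCl4 + 4MU, 16.9, 11.5, 7.86 and 15.1 in CCl4 + siLuc-LNP and 4.11, 7.62, 6.18 and 8.68 in CCl4 + siHAS2-LNP mice. Every CCl4 library lay below the lowest matched library in the control, siLuc and siHAS2 arms, whereas the 4MU arm overlapped. The mean effect was -1.57 ± 0.20 SE, adjusted p = 3.85e-07, a 2.97-fold lower level. Of the arms, CCl4 against control gave -2.53, siLuc -1.42 and siHAS2 -2.00, all called, and 4MU gave -0.34 (adjusted p = 0.533). The call of the siLuc arm was lost without siLuc mouse 2 (-1.07, adjusted p = 0.0566).

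Cxcl10, whose promoter above holds both motifs, stood at 6.26, 4.07, 4.14 and 3.72 CPM in control, 1.79, 2.03 and 6.58 in 4MU, 2.86, 7.23 and 3.87 in siLuc and 6.99, 6.89 and 5.38 in siHAS2 mice. Under CCl4 it stood at 4.38 and 5.31 CPM in CCl4, 2.37, 0.549, 2.44 and 1.85 in CCl4 + 4MU, 4.74, 2.58, 3.96 and 7.87 in CCl4 + siLuc-LNP and 2.78, 2.34, 1.57 and 1.47 in CCl4 + siHAS2-LNP mice. The CCl4 mice lay within the range of the control mice, and the CCl4 + siHAS2-LNP mice lay below all siHAS2 mice. Its mean effect was -0.60 ± 0.23 SE, adjusted p = 0.0302, and of the arms the siHAS2 arm was called (-1.62 ± 0.44 SE, adjusted p = 0.0167), though not without siHAS2 mouse 1 or 2 or CCl4 + siHAS2-LNP mouse 3 (adjusted p up to 0.061). The call of the mean effect was lost without any 1 of 5 libraries, at the most without 4MU mouse 3 (-0.39, adjusted p = 0.122), and also without CCl4 mouse 1 or 2, CCl4 + siHAS2-LNP mouse 3 or siLuc mouse 2. Cxcl11, the third CXCR3 ligand, stood at 3.36, 5.84, 5.34 and 3.23 CPM in control, 3.59, 4.41 and 3.24 in 4MU, 7.27, 3.53 and 2.64 in siLuc and 5.37, 5.66 and 2.45 in siHAS2 mice. In the CCl4 groups Cxcl11 was at 2.09 and 1.51 CPM (CCl4), 1.63, 1.3, 2.33 and 1.57 (CCl4 + 4MU), 2.7, 1.89, 1.98 and 3.74 (CCl4 + siLuc-LNP) and 2.51, 2.59, 4.34 and 3.47 (CCl4 + siHAS2-LNP). It fell by less than Cxcl9, at -0.93 ± 0.18 SE, adjusted p = 0.00015 in the mean effect, and 8 of 14 CCl4 libraries lay below all 13 others.

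Cxcr3, the receptor of these ligands on T and NK cells, stood at 0.916, 0.826, 1.24 and 0.654 CPM in control, 0.41, 1.02 and 0.456 in 4MU, 0.744, 0.968 and 1.27 in siLuc and 0.969, 0.472 and 0.718 in siHAS2 mice. With CCl4 its levels were 0.243 and 0.264 CPM in CCl4, 0.645, 1.2, 0.517 and 1.28 in CCl4 + 4MU, 0.98, 0.386, 0.961 and 0.589 in CCl4 + siLuc-LNP and 0.587, 0.879, 0.522 and 1.2 in CCl4 + siHAS2-LNP mice. The 2 CCl4 mice were the lowest of all 27, at 5 and 7 counts, and the other CCl4 groups overlapped with their arms. The log2 fold change was -1.82 ± 0.55 SE, adjusted p = 0.0125 in CCl4 against control, not called without either CCl4 mouse (adjusted p = 0.071 and 0.108), and -0.44 ± 0.23 SE, adjusted p = 0.109 in the mean effect. Cxcr6, the receptor for Cxcl16 on resident T and NK cells, fell with CCl4. It stood at 3.21, 2.01, 2.48 and 2.86 CPM in control, 1.08, 1.95 and 2.38 in 4MU, 3.83, 2.34 and 2.94 in siLuc and 2.22, 1.32 and 3.59 in siHAS2 mice, against 0.925 and 0.641 in CCl4, 1.29, 0.947, 0.739 and 1.53 in CCl4 + 4MU, 1.68, 0.887, 1.56 and 0.832 in CCl4 + siLuc-LNP and 0.626, 0.439, 0.883 and 0.668 in CCl4 + siHAS2-LNP mice. Of the 14 CCl4 libraries, 10 lay below every library without CCl4 (-1.39 ± 0.19 SE, adjusted p = 1.42e-06). The summed level of 9 T and NK cell markers was 6.38 to 13.1 CPM without CCl4 and 2.80 to 7.92 CPM with it. Of 7 tested markers, 3 fell and none rose in the mean effect. That is 42.9% called lower, beside 25.6% of all genes called lower and 51.9% called in either direction. The part of these cells in the levels of Cxcr3, Cxcr6 and their ligands was not tested.

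Both tested ligands of the CXCR2 group were called, in opposite directions. Cxcl1 ranged widely: it stood at 9.36, 89.4, 14.6 and 23.2 CPM in control, 18.8, 15.5 and 98.7 in 4MU, 12.8, 8.09 and 8.66 in siLuc and 11.6, 11.6 and 12.4 in siHAS2 mice. In the CCl4 groups Cxcl1 stood at 37.9 and 65.3 CPM (CCl4), 31.6, 58.5, 19.3 and 99.6 (CCl4 + 4MU), 27.7, 35.5, 36 and 37.1 (CCl4 + siLuc-LNP) and 24.6, 17.9, 36.8 and 12.7 (CCl4 + siHAS2-LNP). Control mouse 2 and 4MU mouse 3 were as high as the highest CCl4 libraries, and the mean effect of 0.90 ± 0.33 SE, adjusted p = 0.0234 was lost without CCl4 mouse 2 (0.79, adjusted p = 0.071) and with all CCl4 against all other mice taken as 2 groups (0.59, adjusted p = 0.213). Ppbp, a chemokine of platelet granules, stood at 1.07, 3.36, 3.29 and 2.04 CPM in control, 0.461, 0.0781 and 1.22 in 4MU, 4.0, 1.08 and 1.14 in siLuc and 0.848, 5.19 and 2.21 in siHAS2 mice. Under CCl4 its range was 0.235 to 0.754 CPM, with 0.535 and 0.754 in CCl4, 0.387, 0.698, 0.48 and 0.712 in CCl4 + 4MU, 0.274, 0.502, 0.54 and 0.485 in CCl4 + siLuc-LNP and 0.235, 0.293, 0.482 and 0.668 in CCl4 + siHAS2-LNP mice. Ppbp fell in the control, siLuc and siHAS2 arms and in the mean effect (-1.73 ± 0.34 SE, adjusted p = 0.000144). The siLuc arm rested on siLuc mouse 1 (-1.31, adjusted p = 0.185 without it), the siHAS2 arm on siHAS2 mouse 2 (-1.95, adjusted p = 0.0837 without it) and the control arm on either CCl4 mouse and on control mice 2, 3 and 4 (adjusted p up to 0.198), and in the 4MU arm, where the 4MU mice were low already, the log2 fold change was 0.0042. Pf4, the other platelet chemokine and its neighbour on chromosome 5, gave 0.29 ± 0.20 SE, adjusted p = 0.231. Of 6 platelet and megakaryocyte markers, 2 were tested and 1 fell, Gp1bb was at 0 in all libraries, and their sum was 5.25 to 14.2 CPM without and 4.44 to 9.12 CPM with CCl4. Cxcr2, the neutrophil receptor of Cxcl1, was positive in 4 of 4 arms and was not called (0.60 ± 0.26 SE, adjusted p = 0.0552).

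Among the inflammatory CC ligands, which attract monocytes, T cells and eosinophils, 4 of 7 tested members rose and 1 fell in the mean effect, which is 71.4% called beside 51.9% of all genes. Ccl3 and Ccl4, ligands made by activated macrophages, lay just above the count minimum, at means of 10.1 and 10.6 counts, with Ccl7 just below it at 8.59. Both passed through the CCl4 mice, with means of 4.23 and 6.38 counts without CCl4 and 15.5 and 14.5 with it. The 71.4% above includes both, so that share leans towards a difference. Ccl3 stood at 0.305, 0, 0.0854 and 0.123 CPM in control, 0.102, 0.156 and 0.101 in 4MU, 0.343, 0.285 and 0.0879 in siLuc and 0.525, 0.141 and 0.419 in siHAS2 mice. Its levels under CCl4 were 0.389 and 0.603 CPM in CCl4, 0.688, 0.399, 0.702 and 0.89 in CCl4 + 4MU, 1.06, 0.463, 0.54 and 0.866 in CCl4 + siLuc-LNP and 0.979, 0.488, 0.442 and 0.801 in CCl4 + siHAS2-LNP mice. The CCl4 library was higher in every pair of the control, 4MU and siLuc arms, all called, and the mean effect was 1.71 ± 0.29 SE, adjusted p = 3.11e-05. The control arm lost its call without CCl4 mouse 2 or control mouse 2 or 3 (adjusted p up to 0.236), and the siLuc arm without siLuc mouse 2 or 3 or CCl4 + siLuc-LNP mouse 1 or 4 (up to 0.147). The gene Ccl4, which lies next to Ccl3 and shares only its letters with the toxin CCl4, stood at 0.204, 0.295, 0.427 and 0.164 CPM in control, 0.307, 0.156 and 0.405 in 4MU, 0.0572, 0.285 and 0.571 in siLuc and 0.323, 0.424 and 0.359 in siHAS2 mice. With the toxin, Ccl4 was at 0.73 and 0.791 CPM in CCl4, 0.602, 0.449, 0.517 and 1.25 in CCl4 + 4MU, 0.588, 0.502, 0.48 and 0.901 in CCl4 + siLuc-LNP and 0.352, 0.488, 0.522 and 0.134 in CCl4 + siHAS2-LNP mice. It rose in the mean effect (0.97 ± 0.26 SE, adjusted p = 0.00289), and the siLuc and siHAS2 arms overlapped.

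Ccl24, an eosinophil attractant acting on CCR3, was the CC ligand that fell. It stood at 7.28, 4.9, 7.77 and 8.01 CPM in control, 2.97, 6.37 and 4.96 in 4MU, 6.35, 5.35 and 7.43 in siLuc and 7.11, 10.5 and 7.59 in siHAS2 mice. With CCl4 it stood at 2.58 and 2.45 CPM in CCl4, 2.93, 2.24, 2.37 and 3.67 in CCl4 + 4MU, 2.43, 4.09, 3.42 and 1.63 in CCl4 + siLuc-LNP and 1.49, 2.29, 2.57 and 1.47 in CCl4 + siHAS2-LNP mice. Of the 14 CCl4 libraries, 11 were below all 13 others, the mean effect was -1.37 ± 0.15 SE, adjusted p = 5.91e-08, and the call held under all 34 alternatives run for it. Ccl6 and Ccl9, macrophage ligands of CCR1, rose by small amounts (0.40 ± 0.15 SE, adjusted p = 0.0287 and 0.39 ± 0.12 SE, adjusted p = 0.0116). The call of Ccl9 was lost without CCl4 mouse 1 (0.26, adjusted p = 0.087), and that of Ccl6 without CCl4 mouse 2 (0.28, adjusted p = 0.15), 4MU mouse 1 (0.35, adjusted p = 0.0516) or siHAS2 mouse 2 (0.36, adjusted p = 0.0577) and as 2 groups (0.32, adjusted p = 0.167). Ccl5, a ligand made by T and NK cells, gave -0.44 ± 0.18 SE, adjusted p = 0.0503.

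Ccl2 (ENSMUSG00000035385, chr11:81926397-81928279, plus strand), the monocyte attractant named in the study, was high in the CCl4 mice and not in 2 of the 3 treated CCl4 groups. It stood at 0.56, 1.42, 1.2 and 0.9 CPM in control, 0.256, 0.937 and 2.13 in 4MU, 1.54, 1.14 and 0.967 in siLuc and 0.727, 0.849 and 0.897 in siHAS2 mice. Among the CCl4 groups, Ccl2 stood at 2.38 and 6.89 CPM in CCl4, 0.602, 0.349, 0.739 and 1.25 in CCl4 + 4MU, 2.08, 1.7, 0.9 and 4.3 in CCl4 + siLuc-LNP and 0.9, 0.195, 0.803 and 0.534 in CCl4 + siHAS2-LNP mice. Both CCl4 mice lay above all 13 mice without CCl4, mouse 2 far above mouse 1, and CCl4 + siLuc-LNP mouse 4 was the second highest of all. In CCl4 against control Ccl2 rose (2.195 ± 0.574 SE, adjusted p = 0.00475), and the mean effect was 0.54 ± 0.29 SE, adjusted p = 0.125. The rise was 1.25 and was not called without CCl4 mouse 2 (adjusted p = 0.264). In that setting, 4 members (Cxcl9, Ccl24, Cxcl12 and Cxcl14) were called in CCl4 against control, and 16 in the mean effect.

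Among the ligands grouped here as homeostatic or epithelial, Cxcl14 (ENSMUSG00000021508, chr13:56436352-56444603, minus strand) showed the widest mean CCl4 effect among the tested members. It stood at 0.458, 0.944, 0.299 and 0.613 CPM in control, 0.359, 0.976 and 0.0506 in 4MU, 0.114, 0.171 and 0.396 in siLuc and 0.525, 0.33 and 0.12 in siHAS2 mice. With CCl4, Cxcl14 stood at 5.84 and 5.61 CPM in CCl4, 5.21, 3.79, 7.58 and 5.69 in CCl4 + 4MU, 8.89, 2.12, 1.86 and 8.28 in CCl4 + siLuc-LNP and 3.21, 3.42, 2.01 and 3.34 in CCl4 + siHAS2-LNP mice. Its counts averaged 8.92 without CCl4 and 115 with it, so Cxcl14 passed the count minimum through the CCl4 mice. All 14 CCl4 libraries lay above all 13 others. Such a separation, in either direction, held for 1 of the 33 members and for 4.58% of all genes tested, so it was no more frequent among the members. The mean effect was 3.60 ± 0.32 SE, adjusted p = 1.1e-09, a 12.1-fold higher level, and the arms ran from 3.10 (siHAS2) to 4.45 (siLuc). No alternative of those run, including any library left out, ended the call. In the CCl4 + siLuc-LNP group the 4 mice split into 2 near 2 CPM and 2 above 8 CPM. The summed level of 7 stellate cell markers was 69.2 to 202 CPM without and 200 to 923 CPM with CCl4, and that of 5 cholangiocyte markers was 29.5 to 77.0 and 109 to 692 CPM. Their part in the rise of Cxcl14 was not tested.

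Ccl27a, an epithelial ligand, fell. It stood at 0.865, 1.18, 0.897 and 0.981 CPM in control, 1.18, 0.898 and 0.81 in 4MU, 1.83, 0.57 and 0.483 in siLuc and 0.404, 1.27 and 0.538 in siHAS2 mice, and at 0.146 and 0.0377 in CCl4, 0.387, 0.249, 0.517 and 0.285 in CCl4 + 4MU, 0.157, 0.116, 0.42 and 0 in CCl4 + siLuc-LNP and 0.157, 0.244, 0.281 and 0.267 in CCl4 + siHAS2-LNP mice. Of the 14 CCl4 libraries, 12 lay below all others, and the mean effect was -2.26 ± 0.33 SE, adjusted p = 3.02e-06. Both CCl4 mice had at most 3 counts, so Ccl27a was at least 7.57-fold lower in CCl4 than in control. The log2 fold change of that arm was -3.42, and -2.68 without CCl4 mouse 2. In the siLuc arm it was -2.59, a call lost without siLuc mouse 1 (-1.75, adjusted p = 0.0635). Counts of Ccl27a averaged 18.7 without CCl4 and 5.14 with it, so it passed the count minimum through the mice without CCl4. Mouse genomes hold near-identical copies of Ccl27a and Ccl21a, and reads that map to several places were not counted, so these levels are uncertain. Cxcl12, which holds progenitors and lymphocytes through CXCR4, ranged over 235 to 408 CPM without CCl4, and stood at 178 and 129.8 in CCl4, 283, 266, 245 and 256 in CCl4 + 4MU, 211, 224, 191 and 164 in CCl4 + siLuc-LNP and 227, 244, 259.7 and 266 in CCl4 + siHAS2-LNP mice. It fell in the mean effect (-0.61 ± 0.09 SE, adjusted p = 3.96e-06), and the 4MU arm overlapped. Ccl25, a T cell attractant of gut and thymus, fell by 0.30 on the log2 scale (adjusted p = 0.0478), a call that 23 of 34 alternatives lost.

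Cxcl16, a scavenger receptor and the ligand of CXCR6, rose with CCl4 in the control and 4MU arms. It stood at 8.04, 5.55, 6.15 and 8.05 CPM in control, 4.15, 8.08 and 7.14 in 4MU, 8.24, 5.98 and 10.6 in siLuc and 7.03, 6.37 and 6.88 in siHAS2 mice. Under CCl4, Cxcl16 stood at 10.9 and 11.5 CPM in CCl4, 17.9, 14.6, 15.6 and 22.1 in CCl4 + 4MU, 15.1, 12.5, 11.5 and 11.3 in CCl4 + siLuc-LNP and 8.57, 6.4, 6.46 and 4.41 in CCl4 + siHAS2-LNP mice. The 10 libraries of the first 3 CCl4 groups lay above all 13 mice without CCl4, and the 4 CCl4 + siHAS2-LNP mice did not. The mean effect was 0.67 ± 0.12 SE, adjusted p = 3.54e-05, and the siHAS2 arm gave -0.04 ± 0.23 SE, adjusted p = 0.94. The call of the control arm was lost without either CCl4 mouse or without control mouse 2 or 3 (adjusted p up to 0.166). Ccl21a and Cx3cl1 were not called in the mean effect, and both were highest in CCl4 + 4MU mouse 4, at 6.23 and 4.06 CPM.

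Of the 8 tested signalling receptors, 2 rose and 3 fell in the mean effect, which is 62.5% called beside 51.9% of all genes. Cxcr4, the receptor for Cxcl12 on most leukocytes, stood at 0.305, 0.531, 0.641 and 0.981 CPM in control, 0.307, 0.508 and 0.658 in 4MU, 1.14, 0.342 and 0.703 in siLuc and 0.808, 0.613 and 0.837 in siHAS2 mice. With CCl4 it stood at 1.31 and 2.03 CPM in CCl4, 2.93, 2.19, 2.07 and 2.49 in CCl4 + 4MU, 2.9, 1.7, 2.1 and 2.25 in CCl4 + siLuc-LNP and 2.04, 1.71, 1.4 and 0.801 in CCl4 + siHAS2-LNP mice. All but 1 of the 14 CCl4 libraries, CCl4 + siHAS2-LNP mouse 4, lay above all others (1.59 ± 0.19 SE, adjusted p = 2.28e-07). Ligand and receptor thus moved in opposite directions, Cxcl12 lower and Cxcr4 higher. Xcr1, a receptor of cross-presenting dendritic cells, stood at 0.662, 0.767, 0.384 and 0.736 CPM in control, 0.256, 0.391 and 0.81 in 4MU, 1.03, 1.03 and 0.923 in siLuc and 0.565, 0.613 and 0.837 in siHAS2 mice. In CCl4 mice it was at 0.243 and 0.151 CPM, in CCl4 + 4MU mice at 0.387, 0.299, 0.259 and 0.605, in CCl4 + siLuc-LNP mice at 0.47, 0.386, 0.48 and 0.416 and in CCl4 + siHAS2-LNP mice at 0.352, 0.342, 0.442 and 0.134. Xcr1 fell (-1.02 ± 0.20 SE, adjusted p = 0.000198), and the CCl4 and control mice did not overlap. Its counts averaged 14 without CCl4 and 8.43 with it, so it passed the count minimum through the mice without CCl4. The 62.5% above includes Xcr1. The sum of 6 dendritic cell markers, of which 3 were tested, was 6.16 to 11.4 CPM without and 7.34 to 25.4 CPM with CCl4, and 1 of the 3 rose and 2 fell.

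Of the 4 atypical receptors, Ackr3, a scavenger of Cxcl12 on endothelium, rose. It stood at 0.814, 0.118, 1.32 and 0.736 CPM in control, 0.41, 1.25 and 0.76 in 4MU, 0.515, 0.741 and 0.879 in siLuc and 0.485, 0.566 and 0.478 in siHAS2 mice, and at 1.36 and 2.52 in CCl4, 0.904, 0.698, 1.18 and 1.42 in CCl4 + 4MU, 1.68, 1.12, 0.54 and 1.46 in CCl4 + siLuc-LNP and 0.431, 0.635, 0.763 and 0.668 in CCl4 + siHAS2-LNP mice. The CCl4 mice were the highest group, CCl4 + siHAS2-LNP mice overlapped with siHAS2 mice, and the mean effect of 0.69 ± 0.25 SE, adjusted p = 0.0218 was lost without CCl4 mouse 2 (0.56, adjusted p = 0.0901). Ackr2, which clears inflammatory CC chemokines, rose in the 4MU arm (1.23 ± 0.45 SE, adjusted p = 0.0459), a call lost without 4MU mouse 1 (0.90, adjusted p = 0.184) or mouse 2 or CCl4 + 4MU mouse 1, 2 or 3, and it gave 0.18 ± 0.23 SE, adjusted p = 0.523 in the mean effect. Ackr1, the chemokine transporter of venules and red cells, and Ackr4, a scavenger of Ccl21 and Ccl25, were not called, at 0.30 ± 0.18 SE, adjusted p = 0.18 and 0.32 ± 0.23 SE, adjusted p = 0.248.

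Among CCl4-treated mice, the study asked what 4MU and siHAS2-LNP change. CCl4 + 4MU and CCl4 + siHAS2-LNP are each compared with the same 2 CCl4 mice, so the comparisons share their errors. In CCl4 + 4MU against CCl4, Ccl2, Pf4 and Cxcl10 fell and Cxcl12 and Cxcr3 rose, 5 members or 15.2%, where 18.3% of all genes were called (8.28% higher, 10% lower). In CCl4 + siHAS2-LNP against CCl4, Ccl2, Pf4, Ccr3, Ackr3 and Cxcl16 fell and Cxcl12 rose, 6 members or 18.2%, where 14.4% of all genes were called (7.11% higher, 7.33% lower). In CCl4 + siLuc-LNP against CCl4, the eosinophil receptor Ccr3 fell and no other member was called (0.248% of all genes). The median log2 fold change of the members was -0.02, -0.51 and 0.19 in these comparisons, beside 0.04, 0.02 and 0.01 for all genes. When CCl4 mouse 2 was left out, 0, 1 and 0 members were called. Without CCl4 + 4MU mouse 4 the count with 4MU was 3, and without CCl4 + siHAS2-LNP mouse 3 or mouse 4 that with siHAS2-LNP was 3.

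**Figure D3:**
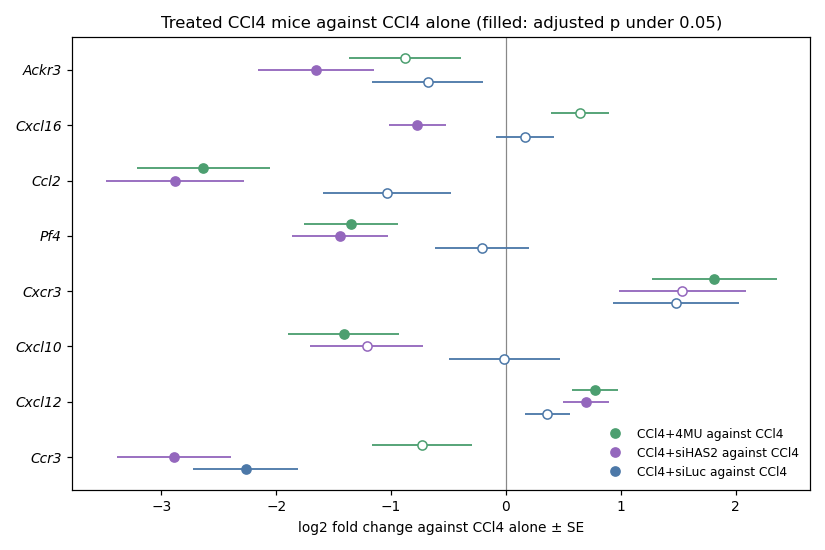
Log2 fold change against CCl4 alone with its standard error, for the 8 members called in at least 1 of the 3 comparisons (filled where the adjusted p was under 0.05). Ccl2 and Pf4 lie left of 0 and Cxcl12 right of 0 with 4MU and with siHAS2-LNP, and Cxcl16 is positive with 4MU and negative with siHAS2-LNP.

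Ccl2 fell with 4MU (-2.63 ± 0.58 SE, adjusted p = 0.00372) and with siHAS2-LNP (-2.88 ± 0.60 SE, adjusted p = 0.00367), to a 6.2-fold and a 7.37-fold lower level, and with siLuc-LNP it gave -1.03 ± 0.56 SE, adjusted p = 0.414. All 4 mice of either called group lay below both CCl4 mice, whose values were 2.38 and 6.89 CPM. Without CCl4 mouse 2 the values were -1.69 (adjusted p = 0.205) and -1.95 (adjusted p = 0.183). Pf4, a platelet chemokine, stood at 0.713, 2.72, 2.26 and 1.23 CPM in control, 0.82, 0.664 and 1.16 in 4MU, 2.06, 2.11 and 1.49 in siLuc and 1.33, 3.4 and 1.44 in siHAS2 mice. In the CCl4 groups Pf4 stood at 2.73 and 3.65 CPM (CCl4), 0.904, 1.5, 1.33 and 1.28 (CCl4 + 4MU), 3.25, 2.12, 2.04 and 3.6 (CCl4 + siLuc-LNP) and 1.29, 1.51, 1.04 and 0.668 (CCl4 + siHAS2-LNP). The CCl4 and CCl4 + siLuc-LNP mice were higher than every mouse of the other CCl4 groups. Pf4 fell with 4MU (-1.35 ± 0.41 SE, adjusted p = 0.0244) and with siHAS2-LNP (-1.44 ± 0.42 SE, adjusted p = 0.0228). Leaving out CCl4 mouse 2 gave -1.15 (adjusted p = 0.241) and -1.24 (adjusted p = 0.247).

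Cxcl12 was higher with 4MU (0.77 ± 0.20 SE, adjusted p = 0.0109) and siHAS2-LNP (0.70 ± 0.20 SE, adjusted p = 0.0226) than in CCl4 alone, and no mouse of these groups was as low as the CCl4 mice. Without CCl4 mouse 2 the differences were 0.53 (adjusted p = 0.239) and 0.46 (adjusted p = 0.364). Cxcl10 fell with 4MU (-1.41 ± 0.48 SE, adjusted p = 0.0431), and siHAS2-LNP gave -1.21 ± 0.49 SE, adjusted p = 0.096. Cxcr3 rose with 4MU (1.81 ± 0.54 SE, adjusted p = 0.0232), and siHAS2-LNP gave 1.54 ± 0.56 SE, adjusted p = 0.0623 and siLuc-LNP 1.48 ± 0.55 SE, adjusted p = 0.209. The calls of Cxcl10 and Cxcr3 with 4MU were lost without either CCl4 mouse or without CCl4 + 4MU mouse 2 or 4, at adjusted p values of 0.0521 to 0.258, and that of Pf4 without CCl4 + 4MU mouse 1 (-1.22, adjusted p = 0.0624). 

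Under CCl4, Ccr3 was lower with both nanoparticles than in CCl4 alone. It stood at 3.21, 1.71, 2.78 and 1.72 CPM in control, 0.922, 1.56 and 1.77 in 4MU, 1.14, 1.08 and 0.747 in siLuc and 1.17, 1.6 and 0.777 in siHAS2 mice. The siLuc and siHAS2 mice thus lay below all control mice already without CCl4, though neither difference was called. With CCl4, Ccr3 stood at 1.8 and 2.83 CPM in CCl4, 1.33, 1.5, 1.63 and 1.14 in CCl4 + 4MU, 0.666, 0.694, 0.24 and 0.277 in CCl4 + siLuc-LNP and 0.117, 0.244, 0.281 and 0.935 in CCl4 + siHAS2-LNP mice. All 8 mice with CCl4 and particles were below both CCl4 mice (-2.89 ± 0.50 SE, adjusted p = 0.00112 for siHAS2-LNP, -2.27 ± 0.45 SE, adjusted p = 0.0299 for siLuc-LNP). Without CCl4 mouse 2 the siHAS2-LNP difference was -2.55 (adjusted p = 0.0444), the 1 call left in that comparison, and the siLuc-LNP difference was -1.91 (adjusted p = 0.287). The siLuc-LNP call was also lost without CCl4 + siLuc-LNP mouse 1 (-2.48, adjusted p = 0.0579) or mouse 3 (-2.09, adjusted p = 0.113). In the siHAS2 arm Ccr3 fell with CCl4 (-1.93 ± 0.48 SE, adjusted p = 0.00915), a call lost without siHAS2 mouse 2 (-1.65, adjusted p = 0.06). The control arm gave -0.02 ± 0.44 SE, adjusted p = 0.98. Its mean CCl4 effect of -0.75 was called, and the call was lost with all CCl4 mice set against all others (-0.66, adjusted p = 0.125).

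Ackr3 fell with siHAS2-LNP (-1.65 ± 0.51 SE, adjusted p = 0.031), and without CCl4 mouse 2 it gave -1.16 (adjusted p = 0.388). Leaving out any 1 of the 4 CCl4 + siHAS2-LNP mice also ended that call, at adjusted p values of 0.0504 to 0.0771. Cxcl16 fell with siHAS2-LNP against CCl4 (-0.77 ± 0.25 SE, adjusted p = 0.0397) and against CCl4 + siLuc-LNP (-0.94 ± 0.21 SE, adjusted p = 0.034), where it was the 1 member called (1.09% of all genes). With 4MU it gave 0.64 ± 0.25 SE, adjusted p = 0.077. Every CCl4 + siHAS2-LNP mouse was below every CCl4 and CCl4 + siLuc-LNP mouse in Cxcl16. The call against CCl4 was lost without either CCl4 mouse or without CCl4 + siHAS2-LNP mouse 2, 3 or 4 (adjusted p values of 0.0638 to 0.24). The call against CCl4 + siLuc-LNP was lost without CCl4 + siHAS2-LNP mouse 2, 3 or 4 or CCl4 + siLuc-LNP mouse 1 or 4 (0.0543 to 0.158), while the difference stayed between -1.01 and -0.82. Ccl2 gave -1.85 ± 0.54 SE, adjusted p = 0.0871 in the comparison of both nanoparticles under CCl4, and Pf4 gave -1.24 ± 0.36 SE, adjusted p = 0.0862. Some macrophage markers differed from CCl4 alone. Between the nanoparticles under CCl4, 0 of 6 Kupffer cell markers and 0 of 8 monocyte and macrophage markers were called (1.09% of all genes). The sum of 6 Kupffer cell markers was 89.8 to 124 CPM in CCl4 + siHAS2-LNP and 113 to 195 CPM in CCl4 + siLuc-LNP mice, against 244 to 270 CPM in CCl4 mice. Against CCl4, 5 of 6 (83.3%) fell in CCl4 + siHAS2-LNP mice, beside 14.4% of all genes called. In CCl4 + siLuc-LNP mice 1 of 6 (16.7%) fell, beside 0.248%. The sum of 8 monocyte and macrophage markers was 129 to 220.1 CPM in CCl4 + siHAS2-LNP, 206 to 434 CPM in CCl4 + siLuc-LNP and 237 to 316 CPM in CCl4 mice. Of the 8, 2 (25%) fell in CCl4 + siHAS2-LNP against CCl4, beside 14.4% of all genes called (7.33% lower). In CCl4 + 4MU mice, where Ccl2 and Pf4 were also lower, the Kupffer cell markers summed to 187 to 381 CPM. Their monocyte and macrophage markers summed to 323 to 562 CPM, above both CCl4 mice. No marker of these lists was called in CCl4 + 4MU against CCl4. The 7 stellate markers summed to 237 to 377 CPM in CCl4 + siHAS2-LNP, 200 to 523 CPM in CCl4 + 4MU, 417 to 923 CPM in CCl4 + siLuc-LNP and 556 to 748 CPM in CCl4 mice. The part of these cells in the lower members was not tested.

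**Figure D4:**
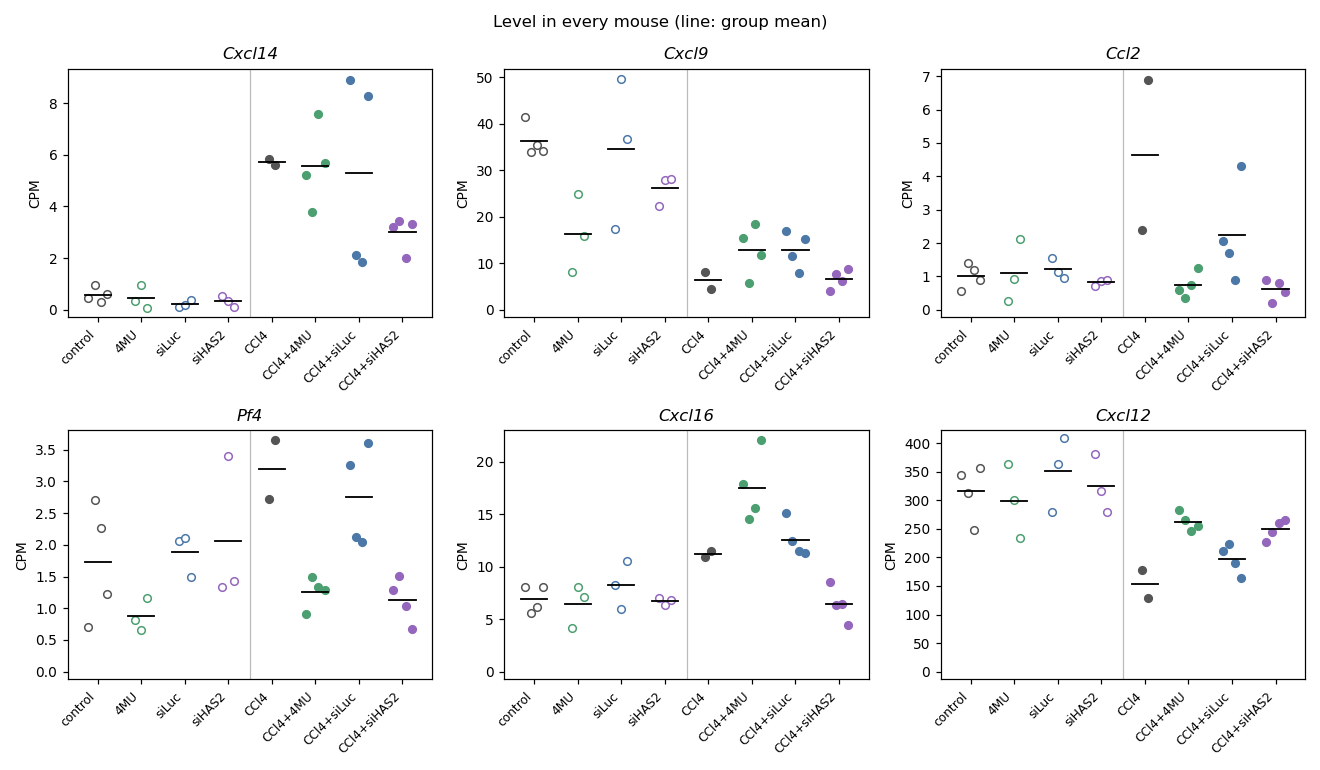
Level in CPM in every mouse of the 8 groups (points, open without and filled with CCl4) with the group mean (line) for 6 members, on axes from 0. Cxcl14 is higher in every CCl4-treated mouse than in every mouse without CCl4, Ccl2 is highest in CCl4 mouse 2 at 6.89 CPM, and Cxcl16 is at 4.41 to 8.57 CPM in CCl4 + siHAS2-LNP mice.

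Whether a treatment changed the response to CCl4 was asked with interaction terms. For 4MU, 3 members were called (5.67% of all genes). The CCl4 effect on Cxcl9 was -2.53 in untreated and -0.34 in 4MU-treated mice, a term of 2.19 ± 0.58 SE, adjusted p = 0.0331. For Ccl2 the effects were 2.195 and -0.56, a term of -2.75 ± 0.81 SE, adjusted p = 0.0464. For Cxcr3 they were -1.82 and 0.50, a term of 2.32 ± 0.69 SE, adjusted p = 0.0472. None of the 3 effects in the 4MU arm was called by itself (adjusted p = 0.533, 0.51 and 0.409). The lower starting level of Cxcl9 in 4MU mice without CCl4 enters its term, at 8.04, 24.8 and 15.9 against 41.4, 34, 35.4 and 34.1 CPM in control mice. Without CCl4 mouse 2 the terms were 1.79 (adjusted p = 0.223), -1.81 (adjusted p = 0.341) and 2.36 (adjusted p = 0.21), and no member was called. Of the 13 mice of these groups, leaving out any 1 of 11 ended the call of Ccl2 (all but 4MU mouse 1 and CCl4 mouse 1) and any 1 of 11 that of Cxcr3 (all but 4MU mouse 2 and CCl4 + 4MU mouse 3). That of Cxcl9 was lost without any 1 of 6, namely control mouse 1, 4MU mouse 1 or 3, CCl4 mouse 2 or CCl4 + 4MU mouse 1 or 4. For siLuc, also set against untreated mice, no member was called by edgeR (0.00709% of all genes). The siHAS2 term was set against the siLuc arm, so it does not compare siHAS2-LNP with untreated mice. No member was called in it either (0.0354%). At an unadjusted p under 0.05 there were 2 members for siLuc and 5 for siHAS2.

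Without CCl4, 2 members were called with the nanoparticles. In 4MU against control no member was called by edgeR (0.00709% of all genes), and 3 had an unadjusted p under 0.05. In siLuc against control, Ccr1 rose and Cxcl13 fell (0.213% of all genes called), and the same 2 genes were called in siHAS2 against control (0.0992%), a comparison added after their values were seen and sharing the control mice. In siHAS2 against siLuc no member was called (0.0425%), with 1 at an unadjusted p under 0.05. Ccr1 (ENSMUSG00000025804, chr9:123762161-123768734, minus strand), whose promoter is shown above, stood at 0.509, 0.413, 0.769 and 0.572 CPM in control, 0.359, 0.117 and 0.456 in 4MU, 4.92, 2.11 and 2.24 in siLuc and 3.72, 4.29 and 3.65 in siHAS2 mice. With CCl4, Ccr1 stood at 1.27 and 4.07 CPM in CCl4, 1.42, 1.05, 1.18 and 1.07 in CCl4 + 4MU, 4.0, 3.28, 3.18 and 4.64 in CCl4 + siLuc-LNP and 2.51, 2.29, 1.85 and 0.534 in CCl4 + siHAS2-LNP mice. All 6 mice with particles alone lay above all control and 4MU mice. The difference from control was 2.41 ± 0.42 SE, adjusted p = 0.00542 for siLuc and 2.75 ± 0.41 SE, adjusted p = 0.00178 for siHAS2, and the first was lost without siLuc mouse 1 (1.91, adjusted p = 0.0727). With CCl4 Ccr1 rose in the control arm (2.22 ± 0.45 SE, adjusted p = 0.000532) and the 4MU arm (1.96 ± 0.49 SE, adjusted p = 0.00552), and the nanoparticle arms gave 0.30 ± 0.38 SE, adjusted p = 0.605 and -1.03 ± 0.38 SE, adjusted p = 0.0738. In CCl4 against control the call was lost without CCl4 mouse 2 (1.16, adjusted p = 0.17), and the mean effect (0.86 ± 0.22 SE, adjusted p = 0.00182) was 0.34 (adjusted p = 0.534) with all CCl4 mice set against all others.

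Cxcl13, the B cell attractant acting on CXCR5, stood at 3.66, 1.12, 1.62 and 2.82 CPM in control, 0.666, 3.28 and 2.13 in 4MU, 0, 0.057 and 0.0439 in siLuc and 0.121, 0.0943 and 0 in siHAS2 mice. In the CCl4 groups it stood at 0.633 and 0.904 CPM (CCl4), 0.301, 0, 0.37 and 1.1 (CCl4 + 4MU), 0.549, 0.309, 0.06 and 0.866 (CCl4 + siLuc-LNP) and 0.0391, 0.244, 0.0803 and 0.267 (CCl4 + siHAS2-LNP). Every mouse with particles alone had at most 3 counts, so Cxcl13 was at least 14.6-fold lower in siLuc and at least 15.7-fold lower in siHAS2 than in control mice (adjusted p = 0.0105 and 0.0329). The siLuc call was lost without any 1 of the siLuc mice (adjusted p values of 0.0688 to 0.112), and the siHAS2 call without any 1 of the siHAS2 mice or control mouse 1 or 4 (0.0764 to 0.22). With CCl4 Cxcl13 fell in the 4MU arm (-2.13 ± 0.67 SE, adjusted p = 0.0228), a call lost without 4MU mouse 2 or 3 or CCl4 + 4MU mouse 1 or 3 (adjusted p up to 0.147), and in the siLuc arm it was at least 2.82-fold higher with CCl4 (adjusted p = 0.0323), a call lost without any 1 of the siLuc mice or CCl4 + siLuc-LNP mouse 1 or 4 (adjusted p up to 0.112). The B and plasma cell markers, 6 genes, summed to 15.1 to 20.9 CPM in control, 11.4 to 23.2 in siLuc and 8.25 to 11.0 CPM in siHAS2 mice. The monocyte and macrophage markers, 8 genes, summed to 103 to 206 CPM in control, 178 to 289 in siLuc and 224 to 252 CPM in siHAS2 mice, and none was called in siLuc against control. The part of these cells in the levels of Ccr1 and Cxcl13 was not tested.

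**Figure D5:**
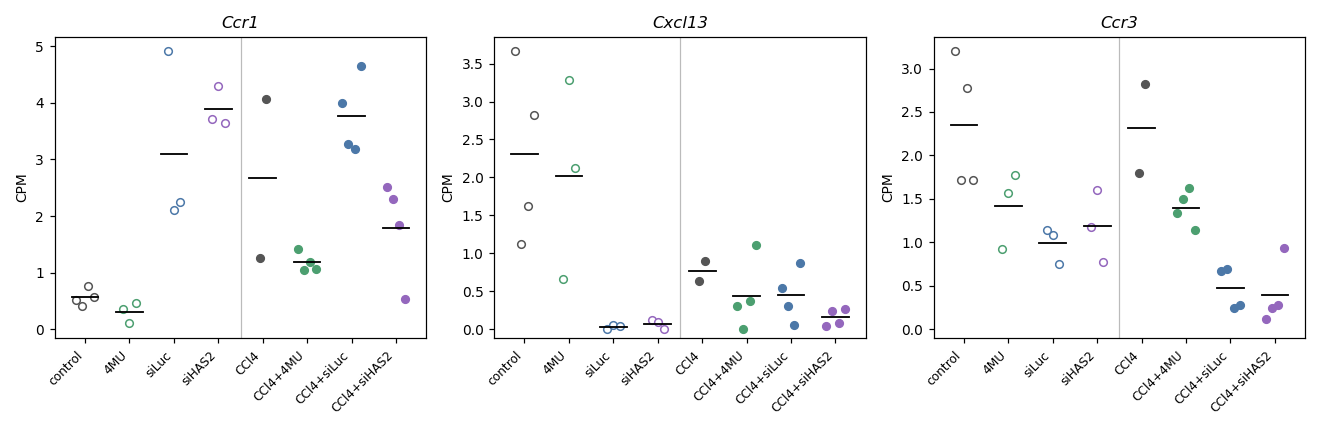
Level in CPM of Ccr1, Cxcl13 and Ccr3 in every mouse of the 8 groups (points, open without and filled with CCl4), with the group mean (line). Ccr1 is above 2 CPM in all siLuc and siHAS2 mice and under 1 CPM in all control mice, Cxcl13 is near 0 in siLuc and siHAS2 mice, and Ccr3 is under 1 CPM in all mice given CCl4 with particles.

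The wider pathway was read from lists of other genes. Of 40 receptor and signalling genes, all tested, 16 rose and 2 fell in the mean CCl4 effect, with a median of 0.21, while 51.9% of all genes were called. The genes that rose included the adaptor Elmo1 (1.50 ± 0.15 SE, adjusted p = 6.27e-09), the PI3K subunit Pik3r5 (1.15 ± 0.16 SE, adjusted p = 2.45e-06), the Rac activator Tiam1 (1.07 ± 0.21 SE, adjusted p = 0.000164) and the arrestin Arrb1 (0.73 ± 0.11 SE, adjusted p = 3.29e-06). Gnaq, a Gq subunit, and Stat5b fell (-0.66 ± 0.11 SE, adjusted p = 1.92e-05 and -0.26 ± 0.09 SE, adjusted p = 0.0172). Cx3cr1, the receptor of Cx3cl1 on monocytes, was the 1 gene of this list called in siLuc against control (2.94 ± 0.37 SE, adjusted p = 0.000167). It stood at 1.73, 1.24, 2.82 and 0.695 CPM in control, 0.461, 1.37 and 0.658 in 4MU, 18.7, 11.3 and 7.6 in siLuc and 9.09, 10.6 and 8.91 in siHAS2 mice. Like Ccr1, it was higher in all 6 mice with particles alone than in all control and 4MU mice, and siHAS2 against control gave 2.54 ± 0.37 SE, adjusted p = 0.00144. In CCl4 mice it stood at 6.42 and 12.7 CPM, and CCl4 against control gave 2.56 ± 0.40 SE, adjusted p = 2.87e-05. In CCl4 + 4MU against CCl4, Gnb1, Cdc42 and Rap1b fell, and in CCl4 + siHAS2-LNP against CCl4, Gnb1, Grk6 and Tiam1 fell. That is 3 of 40 or 7.5% in each, beside 10% and 7.33% of all genes called lower (18.3% and 14.4% in either direction).

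Of 23 genes that induce chemokines, 17 were tested, and 4 rose and 5 fell with CCl4 in the mean effect, which is 52.9% called, close to the 51.9% of all genes. Irf7, Tlr4, Il1r1 and Ifngr1, the interferon-γ receptor (0.63 ± 0.09 SE, adjusted p = 2.8e-06), rose. Irf1, a factor that drives Cxcl9 and Cxcl10, fell (-0.35 ± 0.10 SE, adjusted p = 0.00359), as did Nfkbia, the inhibitor and target of NF-κB (-0.56 ± 0.12 SE, adjusted p = 0.000463), Il1b, Rela and Tnfrsf1a. Tnf, Il6, Ifng, Il17a, Il4 and Il13 were below the count minimum. In CCl4 + 4MU against CCl4, Myd88 and Il1r1 rose and 1 gene of this list fell, which is 17.6% called, close to the 18.3% of all genes. None of the 17 was called in CCl4 + siHAS2-LNP against CCl4, beside 14.4% of all genes. Of 5 tested proteases that trim chemokines, Mmp2, Mmp9, Mmp12 and Mmp14 rose and Dpp4, which cuts the end of Cxcl12, fell (-0.56 ± 0.09 SE, adjusted p = 2.74e-05). Mmp12, the macrophage elastase, rose most (6.65 ± 0.49 SE, adjusted p = 4e-11).

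The other 30 members had a mean below 10 counts and were not tested. Of these, 6 (Ccl21b, Ccl21d, Ccl21e, Ccl21f, Ccl26 and Ccl27b) had no count in any library, 5 had at most 3 counts in any library, and 10 exceeded 10 counts in at least 1. Ccl7, a monocyte attractant encoded beside Ccl2, had 50 and 21 counts in the CCl4 mice and 37 in CCl4 + siLuc-LNP mouse 4. Cxcl5, a CXCR2 ligand, had 29 counts in CCl4 mouse 2 and 25 in CCl4 + siLuc-LNP mouse 4, with 3.41 on average. Ccl28, an epithelial ligand, had 69 counts and Ccl8 had 25 in CCl4 + 4MU mouse 4, the mouse that was also high in Ccl21a and Cx3cl1. Among the untested receptors, Ccr7, which guides dendritic cells to lymph nodes, had 1 to 15 counts, Cxcr5 had 0 to 12 and Ccr9 had 0 to 11. The changes of these members were left untested here, apart from the alternative without a count filter, which tests 57 members.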

How the data were processed

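The data were whole-liver poly(A) RNA-seq counts of 27 mice. The authors trimmed reads with Trimmomatic 0.39, aligned them to GRCm39 with HISAT2 (version not given in the sources used here) and deposited paired-end featureCounts counts per Ensembl 105 gene, without multi-mapping reads, using R 3.4.2. The kit was directional, and the strand setting of the counting was not given in the sources used here. Symbols came from GENCODE vM39 for 54749 of 55414 gene IDs. Total counts ran from 7044386 to 29425937, so genes near 10 counts carry a wide counting error.

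Genes averaging 10 or more counts were fitted in edgeR 4.0.16 (glmQLFit and glmQLFTest, 2-sided, TMM, 8 group means, R 4.3.3), and p-values were adjusted by Benjamini-Hochberg over all 14114 genes. The mean CCl4 effect is the average of 4 arm contrasts. A fold given as at least a value takes 3 counts per library as the floor of a group at or under it. DESeq2 1.42.0, limma 3.58.1 (voom with sample quality weights), DESeq2 size factors, other low-count filters, a block on the replicate number, fits of the compared groups and each library left out were the alternatives. The fit was tested on simulated data. Same-numbered replicates did not deviate together (correlations of -0.31 to 0.27, no comparison with every pair over 0.1), so the numbers were not taken as pairs. Replicates of a group differed by more than sampling noise in all 34 pairs.

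Values were given per library for Ccl2, Pf4 and up to 20 called members with the largest fold changes, and every member called in a treatment comparison was named. The members and lists were chosen with earlier results of these data known. Some genes are not reported here. No library was left out of the comparisons.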

Additional observations from a re-analysis of the deposited data

Results flagged for a closer look

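In groups of 4 mice, 5 of 132 sets of levels held a mouse far from the other 3 by Dixon's criterion, where about 1 in 20, or 6.6, would be expected by chance. Cxcl10 was at 6.26 CPM in control mouse 1 and at 3.72 to 4.14 CPM in the other control mice. Ccl21a was at 6.23 CPM in CCl4 + 4MU mouse 4 and at 0.249 to 0.861 CPM in the others of that group. Cx3cl1 was at 0 in control mouse 2, beside 0.153 to 0.171 CPM, and at 1.10 CPM in CCl4 + siLuc-LNP mouse 1, beside 0.54 to 0.589 CPM. The control values are 0 counts beside 3, 4 and 4 counts, at or near the floor of 3 counts. Cxcl14 was at 2.01 CPM in CCl4 + siHAS2-LNP mouse 3 and at 3.21 to 3.42 CPM in the rest of its group.

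The response to CCl4 differed between 4MU-treated and untreated mice, by edgeR's interaction term, for 3 members. The terms were 2.19 for Cxcl9 (adjusted p = 0.0331), -2.75 for Ccl2 (adjusted p = 0.0464) and 2.32 for Cxcr3 (adjusted p = 0.0472) on the log2 scale. All 3 calls were lost without CCl4 mouse 2, at 1.79, -1.81 and 2.36.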

How the results depend on the processing

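The CCl4 group held 2 mice, and 33 of 63 members passed the count minimum. Leaving out some single library ended 13 of 17 calls in CCl4 against control. It also ended 5 of 10 in the 4MU arm, 6 of 11 in the siLuc arm and 3 of 7 in the siHAS2 arm. Of 1613 recomputed values of called members, 1393 stayed called in the same direction, 220 kept the direction and lost the call, and 0 reversed. The cause of the changes below was not tested, except that leaving out the filter tests 57 members and filterByExpr 40.

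limma-voom called 11 members in CCl4 against control, 12 in CCl4 + siHAS2-LNP against siHAS2, 3 in CCl4 + 4MU against CCl4, 3 in CCl4 + siHAS2-LNP against CCl4, 0 in CCl4 + siHAS2-LNP against CCl4 + siLuc-LNP and 1 in siHAS2 against siLuc. Without a count filter the counts were 11 in CCl4 + siHAS2-LNP against siHAS2, 11 in CCl4 + 4MU against CCl4, 11 in CCl4 + siHAS2-LNP against CCl4, 2 in CCl4 + siLuc-LNP against CCl4, 6 between the nanoparticles under CCl4, 2 in 4MU against control, 1 in siHAS2 against siLuc, and 5, 2 and 2 for the interactions of 4MU, siLuc and siHAS2. With filterByExpr, CCl4 + 4MU against CCl4 gave 8. DESeq2 called 3 between the nanoparticles under CCl4. Fitted with the compared groups alone, CCl4 + siHAS2-LNP against siHAS2 gave 11, siLuc against control 1, and CCl4 + siLuc-LNP against CCl4 and CCl4 + siHAS2-LNP against CCl4 + siLuc-LNP 0 each. With the replicate block these last 2 comparisons also gave 0, the 4MU interaction gave 1 and the other counts stayed within 1.5 times. The replicate numbers were not shown to pair the mice (correlations of -0.31 to 0.27).

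With 1 library left out, the counts ran from 4 to 15 in CCl4 against control, 7 to 10 in the 4MU arm, 7 to 13 in the siLuc arm, 4 to 8 in the siHAS2 arm and 16 to 23 in the mean effect. They ran from 0 to 5 in CCl4 + 4MU against CCl4, 1 to 7 in CCl4 + siHAS2-LNP against CCl4, 0 to 1 in CCl4 + siLuc-LNP against CCl4 and 0 to 2 between the nanoparticles under CCl4. Without CCl4 they were 0 to 0 in 4MU against control and in siHAS2 against siLuc, 0 to 2 in siLuc against control and 1 to 2 in siHAS2 against control, and for the interactions 0 to 3 (4MU), 0 to 0 (siLuc) and 0 to 0 (siHAS2).

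Over all genes, counts that differed by more than 1.5 times were, for edgeR, DESeq2 and limma-voom in turn, 35, 295 and 175 in CCl4 + siLuc-LNP against CCl4, 154, 412 and 12 between the nanoparticles under CCl4, 1, 51 and 2 in 4MU against control, 30, 67 and 84 in siLuc against control, 6, 77 and 171 in siHAS2 against siLuc, 14, 54 and 85 in siHAS2 against control, 800, 1481 and 1121 for the 4MU interaction, 1, 39 and 7 for that of siLuc and 5, 67 and 0 for that of siHAS2. CCl4 + siHAS2-LNP against siHAS2 gave 1812, 2190 and 3455, and CCl4 + siHAS2-LNP against CCl4 gave 2038, 2515 and 1322.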
